A study of Mus musculus with 24 samples.

Results

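The 33 genes described here encode proteins that fold, import and survey new secretory proteins in the endoplasmic reticulum (ER), the membrane compartment where acinar cells of the pancreas make their digestive enzymes. They were chosen by symbol with earlier results of these data known, so the counts of called genes below are no test of the list. A row of the gene count table belonged to them when GENCODE M21 gave its Ensembl identifier 1 of the 33 symbols. All 33 were found among the 51912 genes of the table, and all 33 were among the 14000 genes that passed the filter on low counts and were tested. They comprise 8 chaperones and folding factors (Hspa5, Hsp90b1, Hyou1, Sdf2l1, Calr, Canx, Creld2, Manf), 4 DnaJ co-chaperones (Dnajb9, Dnajb11, Dnajc3, Dnajc10) and 5 protein disulfide isomerases (Pdia2, Pdia3, Pdia4, Pdia6, P4hb). A further 7 are stress sensors and their signalling partners (Xbp1, Ern1, Atf6, Atf6b, Eif2ak3, Ppp1r15a, Ppp1r15b), and 9 belong to the protein-conducting channel and the signal peptidase (Sec61a1, Sec61b, Sec11c, Ssr1, Ssr2, Ssr3, Spcs2, Spcs3, Tram1).

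RNA was sequenced from the pancreas of 24 C57Bl/6J mice, an inbred strain, in 8 groups of 3 separate animals. The circadian disrupted late mice were 3 males taken on day 9 at zeitgeber time 200 and 3 females taken on day 8 at zeitgeber time 176, and the normal circadian late mice were 3 males and 3 females taken at those same times. The circadian disrupted early mice and the normal circadian early mice, again 3 males and 3 females each, were taken on day 1 at zeitgeber time 8, where zeitgeber time counts hours from lights on. The labels name no transgene or drug, and neither the mice's age nor how the rhythm was disrupted is given in the sources used here. The series' title speaks of re-entrainment, and the comparisons ask how the pancreas of disrupted mice differs from that of normal mice on the first day and about a week later. In late mice sex and day of sampling cannot be told apart.

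Proteins that enter the ER pass through the Sec61 channel, lose their signal peptide to the signal peptidase, and fold with the help of chaperones such as BiP, the product of Hspa5, and of protein disulfide isomerases, which form and shuffle disulfide bonds. When unfolded protein accumulates, the sensors IRE1 (Ern1), PERK (Eif2ak3) and ATF6 start the unfolded protein response: IRE1 splices the mRNA of the transcription factor XBP1, ATF6 is cut to release a transcription factor, and PERK phosphorylates the initiation factor eIF2 and so slows translation. GADD34 (Ppp1r15a) and CReP (Ppp1r15b) direct protein phosphatase 1 to eIF2 and restore translation. Acinar cells carry a dense ER and depend on XBP1 for it.

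Libraries held 31325562 to 62390463 expected counts per mouse, with 17764 to 19678 genes detected. All levels below are CPM, counts relative to library size after TMM scaling, and a gene is called when its adjusted p in edgeR's quasi-likelihood test, Benjamini-Hochberg adjusted over all 14000 genes, is under 0.05. The summed level of 10 acinar markers, none of which was at 0, was 314555 to 352040 CPM in disrupted late, 304032 to 336026 in normal late, 298189 to 360040 in disrupted early and 302407 to 362764 in normal early mice. All 12 clock and clock output genes examined as a check of the condition labels were called in the early comparison of disrupted with normal mice. Late, 7 of the 12 were called, 6 higher and 1 lower, each with the sign opposite to its early one. Arntl had a log2 fold change of 4.56 early and -2.21 late, and Ciart of -2.97 and 1.71. Each group was sampled at only 1 time of day, so a shifted rhythm and a changed mean level cannot be told apart. Some libraries stood apart. The summed level of 15 lymphocyte and plasma cell markers reached 145 CPM in disrupted early female 1, 68.0 CPM in disrupted late male 1 and 60.4 CPM in normal early female 3. That of 7 hepatocyte markers reached 44.4 and 30.5 CPM in disrupted early males 1 and 2. Normal early male 1 had the highest level of all 24 mice in 17 of the 33 ER genes. In whole pancreas, fewer cells of a type and less RNA per cell cannot be told apart.

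Promoter sequences are shown first because several of these genes carry the ER stress response element (ERSE), the paired site through which NF-Y together with ATF6 or XBP1 switches on chaperone genes in mammalian cells. RefSeq promoters of GRCm38.p6, 250 bases before to 50 bases after each gene's start, were at hand for 24 of the 33 genes, the others being Atf6, Hyou1, Manf, Ppp1r15b, Sec11c, Sec61a1, Spcs3, Ssr2 and Tram1. The ERSE was searched on both strands as CCAAT, any 9 bases and CCACG. It occurred in 7 of these 24 genes and in 37 of all 26994 genes with promoters of the same length, which is 0.137%. The 7 genes were Hspa5, Hsp90b1, Calr, Canx, Creld2, Dnajc3 and Pdia6, and Hsp90b1 held 2 copies. Below, 15 bases on each side of the element are shown 5′ to 3′ on the strand of the gene, with the element in capitals. Where the capitals begin with CGTGG the element lies on the opposite strand.
Hspa5 (chr2:34772010-34772058, plus strand): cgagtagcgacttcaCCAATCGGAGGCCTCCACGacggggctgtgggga
Calr (chr8:84847060-84847108, minus strand): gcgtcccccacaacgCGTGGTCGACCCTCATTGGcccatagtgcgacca
Hsp90b1 far copy (chr10:86705623-86705671, minus strand): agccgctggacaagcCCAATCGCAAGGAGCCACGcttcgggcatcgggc
Hsp90b1 near copy (chr10:86705518-86705566, minus strand): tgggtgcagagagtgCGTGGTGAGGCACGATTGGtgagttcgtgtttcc
Canx (chr11:50325785-50325833, minus strand): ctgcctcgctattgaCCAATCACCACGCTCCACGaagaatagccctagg
Pdia6 (chr12:17266476-17266524, plus strand): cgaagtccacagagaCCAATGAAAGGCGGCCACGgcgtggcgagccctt
Dnajc3 (chr14:118937812-118937860, plus strand): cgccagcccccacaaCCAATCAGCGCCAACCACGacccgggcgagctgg
Creld2 (chr15:88819505-88819553, plus strand): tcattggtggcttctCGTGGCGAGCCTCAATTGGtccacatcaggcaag
The element began 65 bases before the start of Hspa5, 98 bases before that of Pdia6, 105 before that of Dnajc3, 107 and 212 before that of Hsp90b1, 126 before that of Creld2, 145 before that of Canx and 162 before that of Calr.

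A second form, ERSE-II, searched as ATTGG, any base and CCACG, was found in the promoter of Dnajb11, which encodes a co-chaperone of BiP, at position 8 of the transcript. It occurred in 0.0445% of all genes with such promoters. Among clock-related and stress-related letters, the E-box CACGTG, the site of the CLOCK and BMAL1 pair, occurred in the promoters of Atf6b, Calr, Dnajb9, Pdia2 and Ssr1. That is 5 of 24 genes, against 8.09% of all genes with such promoters. The D-box TTATGTAA occurred in the promoter of Sec61b, against 1.1% of all these genes, and the cAMP response element TGACGTCA in that of Ppp1r15a, against 2.03%. TGACGTGG, the core letters of the unfolded protein response element, was in 0 of the 24 and in 0.715% of all these genes. The heat shock letters, GAA, TTC and GAA with any 2 bases between neighbours, were in 0 of the 24 and in 0.663%. No E-box overlapped an ERSE. The 250 bases before the start are given for Dnajb9 with its E-box in capitals and for Ppp1r15a with its cAMP response element in capitals, since both genes were called in the early comparison below.
Dnajb9 (chr12:44210069-44210318, minus strand): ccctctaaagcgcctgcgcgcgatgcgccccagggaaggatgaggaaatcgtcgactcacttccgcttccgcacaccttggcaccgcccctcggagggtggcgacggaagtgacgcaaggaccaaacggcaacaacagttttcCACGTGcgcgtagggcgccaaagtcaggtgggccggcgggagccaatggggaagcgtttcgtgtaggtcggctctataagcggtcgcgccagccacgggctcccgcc
Ppp1r15a (chr7:45526269-45526518, minus strand): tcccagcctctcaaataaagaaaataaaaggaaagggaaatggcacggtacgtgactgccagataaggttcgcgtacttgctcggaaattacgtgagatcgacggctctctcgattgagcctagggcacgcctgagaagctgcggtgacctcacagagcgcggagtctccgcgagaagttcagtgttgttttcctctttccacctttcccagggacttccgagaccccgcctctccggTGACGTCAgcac
A match describes letters in the window and shows no binding, and the absence of a match concerns this window only. Starts here are those of RefSeq. In GENCODE M21 the genes Hspa5 and Dnajb9 begin further upstream, at 34771970 and 44210326. The Hspa5 element and the 250 bases of Dnajb9 therefore lie within those genes.

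Per kilobase of merged exons, the levels of the 33 genes in the pancreas covered a wide range. Pdia2, a disulfide isomerase known for its expression in the pancreas, averaged 763 CPM per kb over the 24 mice, and P4hb, the main protein disulfide isomerase and a subunit of prolyl 4-hydroxylase, averaged 213 CPM per kb. Xbp1 at 62.6 and Hspa5 at 54.6 CPM per kb followed, then Calr, the gene of the lectin chaperone calreticulin, at 28.7, Hsp90b1, which encodes GRP94, at 28.6 and Tram1, a membrane protein beside the channel, at 28.2. The lowest were Dnajc10, an ER reductase with a DnaJ domain, at 1.69, Ppp1r15a at 2.63, Atf6b, the ATF6 paralog, at 2.77, Ssr1, a subunit of the translocon-associated complex, at 4.74 and Ern1 at 4.86 CPM per kb. Summed over the 33 genes the level was 3318.61 to 4394.37 CPM, or 0.332% to 0.439% of the scaled counts of a mouse.

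The genes differed in how much mice of 1 group varied. The pooled SD within groups, on the log2 scale, had a median of 0.131 over the 33 genes, against 0.201 over all genes tested, and ran from 0.06 for Canx, the gene of the lectin chaperone calnexin, to 0.248 for Creld2, which encodes a secreted ER stress protein. By role the median SD was 0.178 for the chaperones, 0.123 for the DnaJ genes, 0.139 for the disulfide isomerases, 0.125 for the sensors and signalling genes and 0.111 for the channel and signal peptidase genes. The highest mouse exceeded the lowest 2.48 times for Dnajb9, 2.26 times for Hyou1 and 2.15 times for Hspa5, but 1.27 times for Tram1.

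**Figure D1:**
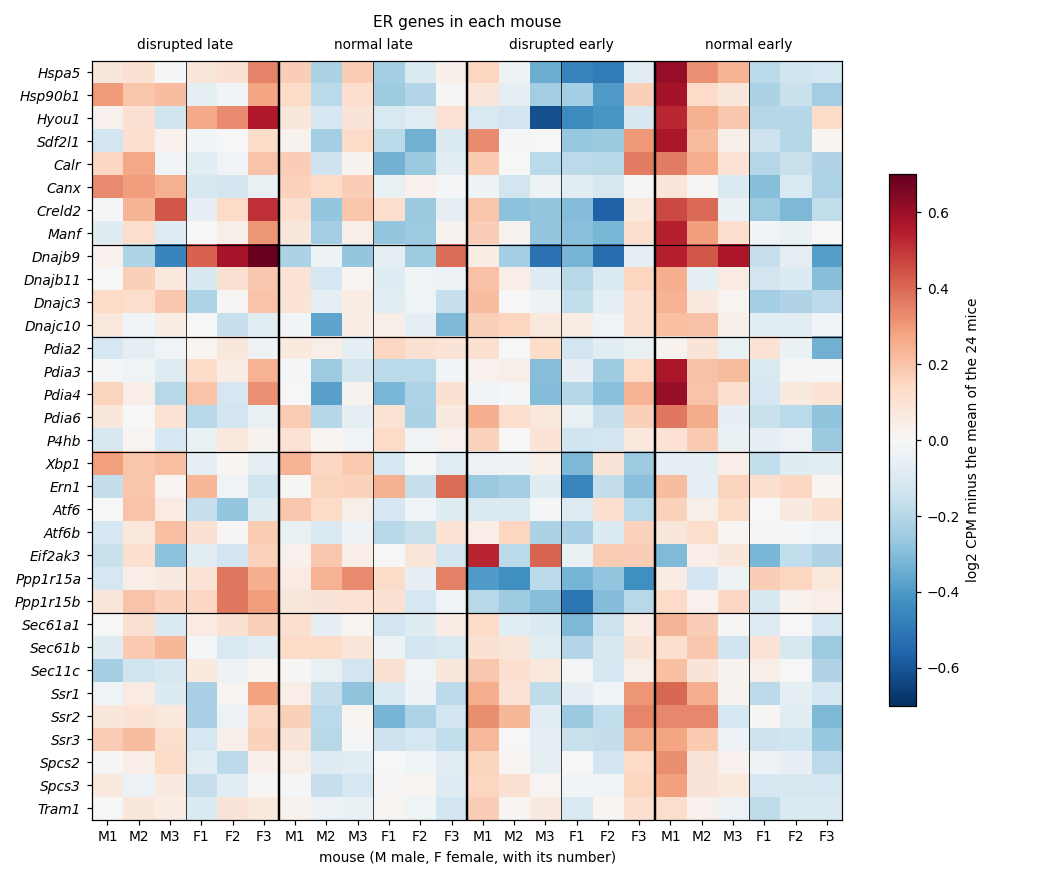
Level of each of the 33 ER genes (rows, in order of role) in each mouse (columns), as log2 CPM minus the gene's mean over the 24 mice; red is higher and blue lower. Normal early male 1 (M1 in the right block) is red in most rows and is the highest mouse in 17 of the 33 genes, and disrupted early female 1 (F1 in the third block) lies below the mean in 32.

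On day 1, 5 of the 33 genes were lower in disrupted than in normal mice and 0 were higher, where 2.47% of all genes tested were called lower and 2.09% higher, 4.56% in all. The 5 were Ppp1r15b, Ppp1r15a and Ern1 of the signalling group, the chaperone gene Hyou1 and the co-chaperone gene Dnajb9. The median log2 fold change over the 33 genes was -0.011, with 19 of 33 below 0, against a median of 0.004 over all genes, and with upper quartile scaling it was 0.009, with 15 of 33 below 0, against 0.024. Of the 33 genes 10 were lower and 1 was higher at an unadjusted p under 0.05, against 9.01% lower and 8.7% higher of all genes tested. Ppp1r15a, Ppp1r15b and Ern1 had every disrupted mouse below every normal mouse, where 1.14% of all genes tested had their 6 disrupted mice below their 6 normal mice.

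Among the sensors and signalling genes, 3 of 7 were lower on day 1 and 0 were higher. Ppp1r15b, which encodes the constitutive eIF2 phosphatase subunit CReP, was at 36.7, 35.2 and 34.1 CPM in disrupted early males and at 29.5, 34.0 and 36.6 CPM in disrupted early females, against 46.0, 42.8 and 46.3 CPM in normal early males and 38.8, 42.6 and 43.3 CPM in normal early females. All 6 disrupted mice lay below all 6 normal mice. The log2 fold change was -0.33 ± 0.06 (SE), with an adjusted p of 0.000479. Ppp1r15a, which encodes the stress-induced subunit GADD34, was at 5.80, 5.66 and 6.71 CPM in disrupted early males and at 6.09, 6.28 and 5.66 CPM in disrupted early females, against 7.88, 6.94 and 7.44 CPM in normal early males and 8.60, 8.45 and 8.01 CPM in normal early females. The groups did not overlap here either, and the log2 fold change was -0.38 ± 0.07 (adjusted p = 0.00251). Both calls remained in each of the 11 other settings and without any 1 of the 24 mice.

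Ern1, the gene of the sensor IRE1, was at 32.8, 33.4 and 37.1 CPM in disrupted early males and at 28.7, 35.1 and 32.1 CPM in disrupted early females, against 45.7, 37.5 and 43.9 CPM in normal early males and 42.6, 43.5 and 39.9 CPM in normal early females. The highest disrupted mouse and the lowest normal mouse, both males, were close together without overlapping. The log2 fold change was -0.35 ± 0.09 (adjusted p = 0.0191). The adjusted p was 0.0539 without normal early male 1, 0.0520 without normal early female 2, 0.0562 without disrupted early male 1 and 0.0564 without disrupted early female 1.

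The PERK gene Eif2ak3 stood the other way in these data. It was at 88.0, 53.3 and 80.7 CPM in disrupted early males and at 58.9, 68.7 and 68.7 CPM in disrupted early females, against 49.1, 62.9 and 64.2 CPM in normal early males and 48.7, 54.0 and 52.7 CPM in normal early females. Disrupted early male 2 and female 1 lay within the normal range, so the groups overlapped. The log2 fold change of 0.34 ± 0.10 did not pass (adjusted p = 0.0644). It passed with upper quartile scaling (adjusted p = 0.0437), with DESeq2 (adjusted p = 0.0174) and without disrupted early male 2 (0.43, adjusted p = 0.00195). The other 3 did not pass: the log2 fold changes were -0.14 ± 0.05 for Atf6 (adjusted p = 0.144), -0.06 ± 0.08 for Atf6b and -0.01 ± 0.05 for Xbp1. Xbp1 averaged 192 ± 20.9 CPM in disrupted early mice and 193 ± 9.34 CPM in normal early mice (SD, n = 6 each). Gene counts do not separate the spliced from the unspliced Xbp1 mRNA.

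**Figure D2:**
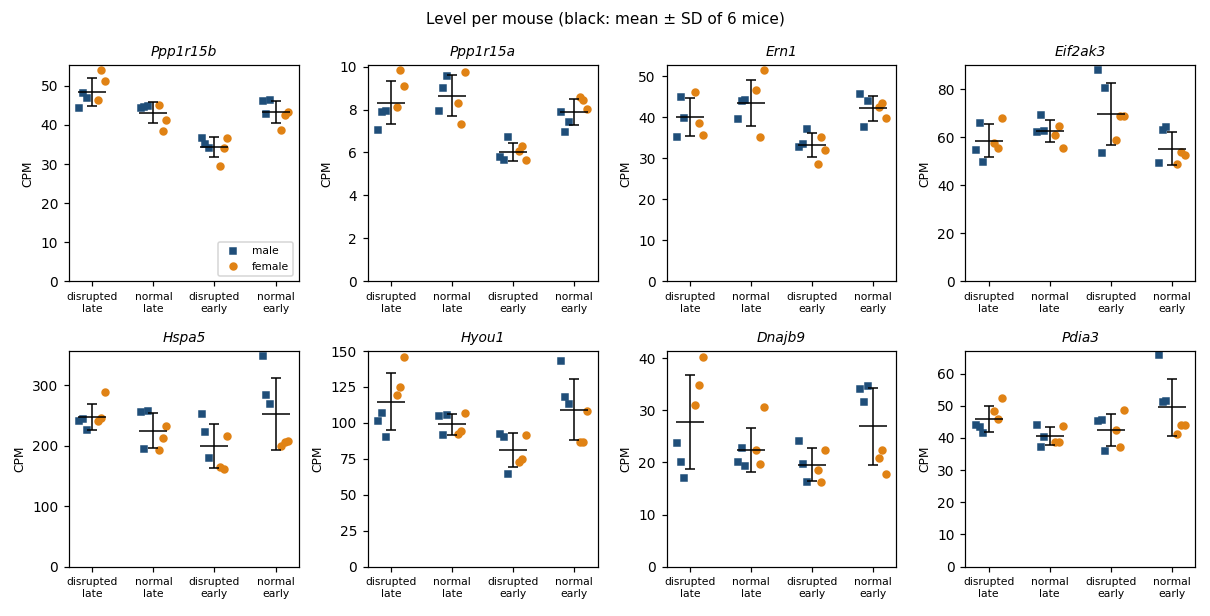
CPM per mouse (vertical axes, linear from 0) of 8 ER genes in the 4 sets of 6 mice, males as squares and females as circles, with the mean and SD of each set in black. For Ppp1r15b, Ppp1r15a and Ern1 the 6 disrupted early mice lie below the 6 normal early mice, whereas for Hspa5, Hyou1 and Dnajb9 the normal early males lie above the normal early females and the sets overlap.

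Of the 8 chaperones and folding factors, 1 was called on day 1, and 7 of the 8 had a log2 fold change below 0. Hyou1 encodes GRP170, an exchange factor for BiP. It was at 92.3, 90.4 and 64.7 CPM in disrupted early males and at 72.9, 74.9 and 91.9 CPM in disrupted early females, against 143, 118 and 113 CPM in normal early males and 86.4, 86.5 and 109 CPM in normal early females. The sets overlapped, since normal early females 1 and 2 lay within the range of the disrupted mice. Hyou1 had -0.41 ± 0.09 on the log2 scale (adjusted p = 0.0102), and it did not pass with only the early mice in the fit (adjusted p = 0.0542) or without the 4 mice highest in lymphocyte markers described below (-0.32, adjusted p = 0.107).

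Hspa5 was at 252, 222 and 179 CPM in disrupted early males and at 165, 162 and 216 CPM in disrupted early females, against 347, 284 and 268 CPM in normal early males and 199, 206 and 208 CPM in normal early females. The 3 normal males were the highest of the 12 early mice, and the normal females lay within the disrupted range. The log2 fold change of -0.32 ± 0.09 did not pass (adjusted p = 0.0524), but it passed with DESeq2 (adjusted p = 0.017) and with limma-voom (adjusted p = 0.0394). Further log2 fold changes that did not pass were -0.23 ± 0.10 for Manf, a secreted ER stress protein, -0.19 ± 0.14 for Creld2, -0.14 ± 0.10 for Hsp90b1, -0.06 ± 0.10 for Sdf2l1, which works with ERdj3, -0.01 ± 0.09 for Calr and 0.04 ± 0.05 for Canx.

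The co-chaperone gene Dnajb9, which encodes ERdj4, a partner of BiP, was the only one of the 4 DnaJ genes called. It was at 24.1, 19.8 and 16.3 CPM in disrupted early males and at 18.6, 16.2 and 22.3 CPM in disrupted early females, against 34.1, 31.6 and 34.7 CPM in normal early males and 20.9, 22.3 and 17.9 CPM in normal early females. All 3 normal males lay above every other early mouse, and the normal females lay within the range of the disrupted mice. Its log2 fold change was -0.42 ± 0.12 with an adjusted p of 0.0488. That call was lost in 7 of the 11 other settings and without any 1 of 15 of the 24 mice, with adjusted p up to 0.123, reached without disrupted early male 3. Those 15 were normal early males 1 to 3, normal early females 1 and 2, disrupted early males 2 and 3, disrupted early females 1 and 2, normal late males 1 to 3, normal late female 1, disrupted late male 2 and disrupted late female 2. Dnajb11, Dnajc3, the gene of the PERK inhibitor p58IPK, and Dnajc10 had log2 fold changes of 0.05 ± 0.07, 0.06 ± 0.06 and 0.04 ± 0.07.

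None of the 5 disulfide isomerases was called on day 1 by edgeR, DESeq2 or limma-voom, with 2 lower and 0 higher at an unadjusted p under 0.05. These 2 were Pdia3, the gene of ERp57, at -0.21 ± 0.07 (adjusted p = 0.115) and Pdia4, the gene of ERp72, at -0.26 ± 0.12 (adjusted p = 0.247). Pdia2, the most abundant of all, averaged 1309.9 ± 96.9 CPM in disrupted early mice and 1283.1 ± 134 CPM in normal early mice (SD, n = 6 each), a log2 fold change of 0.03 ± 0.06. P4hb stood at 0.03 ± 0.06 and Pdia6 at 0.07 ± 0.07.

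The 9 channel and signal peptidase genes included 0 called on day 1, with 0 at an unadjusted p under 0.05 and 0 called by DESeq2 or limma-voom. Their log2 fold changes ran from -0.11 ± 0.06 for Sec61a1, the pore subunit, to 0.09 ± 0.05 for Tram1. Sec61a1 averaged 95.4 ± 10.4 CPM in disrupted early mice and 103 ± 10.3 CPM in normal early mice (SD, n = 6 each). With TMM scaling and all 24 mice in the fit, edgeR called 0 of these 9 genes in the 5 comparisons of condition and time over both sexes.

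Markers of other cells were read beside these values on day 1. Of 15 lymphocyte and plasma cell markers 12 were tested, as 13 genes because Ccl21a has 2 Ensembl identifiers, and all 13 genes had a log2 fold change above 0, with a median of 1.24 and 1 called. Their summed level was 15.7 to 145 CPM in disrupted early mice and 5.87 to 60.4 CPM in normal early mice, with no marker at 0. The 4 hepatocyte markers tested of 7 had a median of 3.38, with 2 called, and summed levels of 8.72 to 44.4 CPM in disrupted early mice and 7.25 to 11.8 CPM in normal early mice. Islet markers were below 0 in 9 of 10 (summed level 274 to 449 CPM in disrupted and 307 to 469 CPM in normal early mice), and the 10 acinar markers had a median of 0.008, with Ptf1a called at 0.55 ± 0.13 (adjusted p = 0.0169). Of 8 ductal markers Sox9 was called at 0.49 ± 0.13 (adjusted p = 0.0235). Of 8 adipocyte, 8 macrophage and 8 stellate cell and fibroblast markers 0 were called, with 7, 8 and 8 above 0. Their part in the results was not tested. Without disrupted early female 1 and disrupted late female 1, chosen from an earlier description as rich in lymphocyte RNA (summed levels of 145 and 50.4 CPM), Ppp1r15b, Ppp1r15a, Hyou1 and Ern1 passed and Dnajb9 did not (-0.41, adjusted p = 0.106). That choice kept disrupted late male 1 and normal early female 3, which had higher sums than disrupted late female 1. Without all 4 of these mice, a setting chosen after seeing the sums, Ppp1r15b, Ppp1r15a and Ern1 passed, and Hyou1 and Dnajb9 (-0.45, adjusted p = 0.0861) did not, with 412 of all genes called against 639.

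About a week later, on day 8 in females and day 9 in males, 0 of the 33 genes were called between disrupted and normal mice, where 1.35% of all genes tested were called. The count was also 0 with DESeq2 and with limma-voom, and 6 genes were higher and 0 lower at an unadjusted p under 0.05, against 6.8% higher and 7.84% lower of all genes tested. The median log2 fold change was 0.099 over the 33 genes, with 25 of 33 above 0, against -0.002 over all genes. All 8 chaperones, all 4 DnaJ genes and 8 of the 9 channel and signal peptidase genes were above 0.

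The smallest p late was that of Ppp1r15b. It was at 44.5, 48.1 and 46.8 CPM in disrupted late males and at 46.3, 54.0 and 51.3 CPM in disrupted late females, against 44.4, 44.6 and 44.9 CPM in normal late males and 45.2, 38.4 and 41.1 CPM in normal late females. Only disrupted late male 1 lay within the range of the normal mice. The log2 fold change of 0.17 ± 0.06 did not pass (adjusted p = 0.135), but it passed at 0.20 without disrupted early female 1 and disrupted late female 1, the only setting among those tried that called a gene of the 33 here. Ssr3, a translocon-associated subunit, had 0.19 ± 0.07 (adjusted p = 0.205), Pdia3 0.18 ± 0.07 (adjusted p = 0.243), Dnajb9 0.26 ± 0.12 (adjusted p = 0.312) and Hyou1 0.20 ± 0.09 (adjusted p = 0.329).

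Ppp1r15a was at 7.03, 7.86 and 7.95 CPM in disrupted late males and at 8.13, 9.85 and 9.10 CPM in disrupted late females, against 7.93, 9.00 and 9.58 CPM in normal late males and 8.31, 7.31 and 9.74 CPM in normal late females, so the groups overlapped (log2 fold change -0.06 ± 0.07). Ern1 averaged 40.1 ± 4.65 CPM in disrupted late mice and 43.5 ± 5.66 CPM in normal late mice, and Eif2ak3 averaged 58.6 ± 6.97 CPM in disrupted late mice and 62.5 ± 4.5 CPM in normal late mice (SD, n = 6 each). Lymphocyte and plasma cell markers were above 0 in 12 of the 13 genes late, with a median log2 fold change of 1.95 and summed levels of 3.09 to 68.0 CPM in disrupted late mice and 2.58 to 13.1 CPM in normal late mice. Their part in the late values was not tested.

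The late and the early condition effect differed in 5 of the 33 genes, all with the larger value late, where 2.31% of all genes tested were called with the larger value late, 2.46% with the smaller and 4.77% in all. The differences, late effect minus early effect on the log2 scale, were 0.50 ± 0.08 for Ppp1r15b (adjusted p = 0.000162), 0.61 ± 0.13 for Hyou1 (adjusted p = 0.00681), 0.68 ± 0.17 for Dnajb9 (adjusted p = 0.0216), 0.39 ± 0.10 for Pdia3 (adjusted p = 0.0279) and 0.47 ± 0.13 for Hspa5 (adjusted p = 0.0443). In each of the 5 the early effect was below 0 and the late effect above 0, and no late effect passed by itself. The early effect is a part of this difference, so the 2 sets of calls rest on the same early mice.

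Hspa5 averaged 248 ± 21.6 CPM in disrupted late mice, 224 ± 28.9 CPM in normal late mice, 199 ± 36.3 CPM in disrupted early mice and 252 ± 58.7 CPM in normal early mice (SD, n = 6 each). Pdia3 averaged 45.9 ± 3.94, 40.5 ± 2.82, 42.5 ± 4.96 and 49.5 ± 8.92 CPM in disrupted late, normal late, disrupted early and normal early mice. Both genes had their widest spread in normal early mice, in which Hspa5 ran from 199 to 347 CPM and Pdia3 from 41.1 to 65.6 CPM. The differences of Hyou1 and Ppp1r15b remained called in all 10 other settings and without any 1 of the 24 mice, and that of Dnajb9 without any 1 of them but not without a filter on low counts or without disrupted early male 3 and disrupted late female 3, the deepest libraries (adjusted p up to 0.0708). Without the 4 mice highest in lymphocyte markers the differences of Hyou1 and Ppp1r15b passed, and those of Dnajb9 (adjusted p = 0.0555), Pdia3 (adjusted p = 0.125) and Hspa5 (adjusted p = 0.183) did not.

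The difference of Hspa5 was called without only 7 of the 24 mice, with adjusted p up to 0.0903 when 1 of the other 17 was left out, reached without disrupted late female 3. It was called without normal early male 3, disrupted early male 1, disrupted early female 3, normal late male 1, normal late male 3, normal late female 3 or disrupted late female 1. The difference of Pdia3 was lost without normal early male 1 (adjusted p = 0.0637), normal early female 2 (0.0520), disrupted early male 3 (0.0610), disrupted early female 2 (0.0550), normal late male 2 (0.0567), normal late female 1 (0.0569), normal late female 2 (0.0537), disrupted late male 1 (0.0512) or disrupted late female 3 (0.0602).

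Other genes with an unadjusted p under 0.05 for this difference, none of them called, were Ppp1r15a at 0.32 ± 0.10 (adjusted p = 0.0806), Manf at 0.38 ± 0.13, Pdia4 at 0.46 ± 0.16, Hsp90b1 at 0.36 ± 0.14 and Creld2 at 0.44 ± 0.19, and Eif2ak3 in the other direction at -0.43 ± 0.14 (adjusted p = 0.0986). The 4 highly expressed genes Pdia2, P4hb, Xbp1 and Tram1 had differences of -0.12 ± 0.08, -0.10 ± 0.08, 0.04 ± 0.08 and -0.02 ± 0.07.

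**Figure D3:**
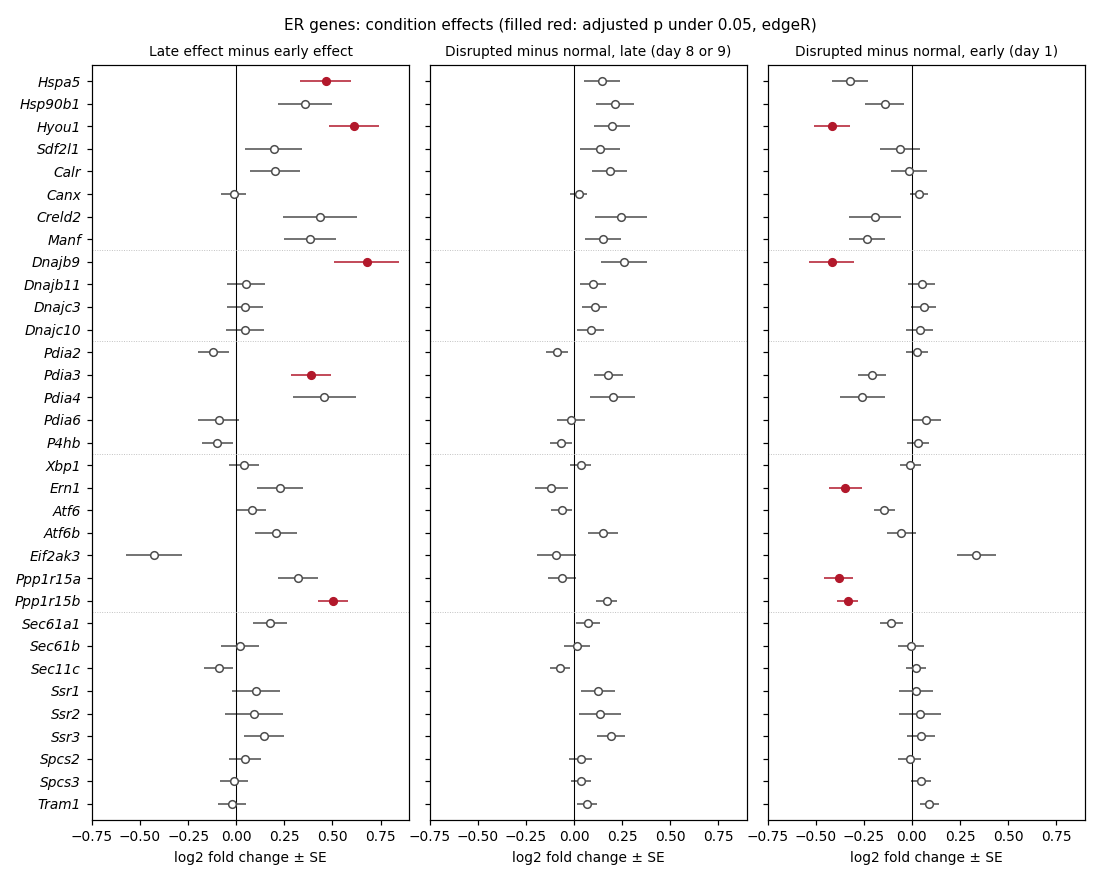
Log2 fold change with its SE (horizontal axes) of the 33 ER genes (rows, in order of role) for the late effect minus the early effect, the late condition effect and the early condition effect, each disrupted minus normal; filled red marks an adjusted p under 0.05 in edgeR. The left panel holds 5 filled points, all right of 0, the middle panel 0 and the right panel 5, all left of 0.

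Within the disrupted mice, 8 of the 33 genes were higher late than early and 0 were lower, where 7.36% of all genes tested were called higher, 6.55% lower and 13.9% in either direction. The 5 genes called in the early comparison are among these 8. Both comparisons use the same disrupted early mice, so the calls are not separate observations. Ppp1r15b averaged 48.5 ± 3.55 CPM in disrupted late mice and 34.4 ± 2.64 CPM in disrupted early mice, and Ppp1r15a averaged 8.32 ± 0.999 CPM in disrupted late mice and 6.03 ± 0.412 CPM in disrupted early mice (SD, n = 6 each). For these 2 genes all 6 late mice lay above all 6 early mice, where 2.75% of all genes tested did so, and for the other 31 the sets overlapped. The log2 fold changes were 0.50 ± 0.06 (adjusted p = 7.19e-07) for Ppp1r15b and 0.45 ± 0.07 (adjusted p = 0.00013) for Ppp1r15a.

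Hyou1 averaged 115 ± 19.8 CPM in disrupted late mice and 81.2 ± 11.9 CPM in disrupted early mice, a log2 fold change of 0.49 ± 0.09 (adjusted p = 0.00106). Dnajb9 averaged 27.8 ± 9.03 CPM in disrupted late mice and 19.6 ± 3.21 CPM in disrupted early mice, 0.46 ± 0.12 on the log2 scale (adjusted p = 0.0134). Its late values were split by sex and day, with 31.03, 34.8 and 40.2 CPM in the females of day 8 but 23.8, 20.1 and 16.9 CPM in the males of day 9. Hspa5 rose by 0.32 ± 0.09 (adjusted p = 0.0250), Canx by 0.16 ± 0.05 (adjusted p = 0.0171), Xbp1 by 0.18 ± 0.05 (adjusted p = 0.0330) and Ern1 by 0.27 ± 0.09 (adjusted p = 0.0345).

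Canx was at 67.6, 65.9 and 63.8 CPM in disrupted late males and at 49.7, 49.2 and 51.9 CPM in disrupted late females, against 52.4, 49.2 and 52.5 CPM in disrupted early males and 51.1, 49.7 and 53.4 CPM in disrupted early females. The late males of day 9 alone lay above the early mice. Xbp1 was at 247, 231 and 234 CPM in disrupted late males and at 194, 204 and 193 CPM in disrupted late females, against 197, 198 and 208 CPM in disrupted early males and 163, 215 and 169.7 CPM in disrupted early females, so the late females lay among the early mice and the late males above them. The calls of Ppp1r15b, Ppp1r15a and Hyou1 remained in the 11 other settings and without any 1 mouse.

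The other 5 calls depended on the setting or on single mice. Canx did not pass with upper quartile scaling (adjusted p = 0.075) or without the filter on low counts (0.09). Nor did it pass without the deepest libraries (0.0515) or without the 4 mice highest in lymphocyte markers (0.084). Dnajb9 did not pass without the deepest libraries (0.0903) or without those 4 mice (0.0669). Hspa5 was lost in 5 of the 11 other settings, Xbp1 in 4 and Ern1 in 3. All 3 were lost without those 4 mice, with adjusted p of 0.134, 0.184 and 0.113. Hspa5 was lost without disrupted early male 3 (adjusted p = 0.0670), disrupted early female 1 (0.0703), disrupted early female 2 (0.0601), disrupted late male 2 (0.0552) or disrupted late female 3 (0.0743). Xbp1 was lost without disrupted early male 1 (0.0661), disrupted early male 2 (0.0648), disrupted early female 1 (0.104), disrupted early female 3 (0.0845), disrupted late male 1 (0.0763) or disrupted late female 2 (0.0790). Ern1 was lost without disrupted early male 1 (0.0748), disrupted early male 2 (0.0707), disrupted early female 1 (0.0944), disrupted early female 3 (0.0577), either of disrupted late males 2 (0.102) and 3 (0.0602), or disrupted late female 1 (0.0896). Upper quartile scaling, which placed 37.4% of all called genes in this comparison on the higher side against 52.9% with TMM, left 4 of the 8 calls and called Sec11c, a catalytic subunit of the signal peptidase, lower at -0.16.

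Within the normal mice, 0 of the 33 genes were called between the late and the early time, where 0.843% of all genes tested were called. At an unadjusted p under 0.05 edgeR had 2 higher and 4 lower, against 7.7% higher and 5.94% lower of all genes tested, limma-voom called 0, and DESeq2 called 2, namely Canx higher and Pdia3 lower. Canx was at 60.2, 59.0 and 60.5 CPM in normal late males and 51.9, 55.0 and 53.3 CPM in normal late females, against 57.1, 54.0 and 50.2 CPM in normal early males and 43.8, 50.01 and 46.4 CPM in normal early females. Each sex was higher late, but the sets overlapped, and the log2 fold change of 0.17 ± 0.05 did not pass (adjusted p = 0.0662). It stood beside 0.16 ± 0.05 within the disrupted mice. Xbp1 had 0.13 ± 0.06 within the normal mice (adjusted p = 0.275), Pdia3 had -0.28 ± 0.07 (adjusted p = 0.0684), Ppp1r15b -0.01 ± 0.06 and Hyou1 -0.13 ± 0.09. The median over the 33 genes was -0.06 within the normal mice and 0.074 within the disrupted mice.

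Lymphocyte and plasma cell markers had a log2 fold change below 0, late against early, in 13 of the 13 genes within the disrupted mice (median -0.68) and in 10 of 13 within the normal mice (median -1.30), with 0 called. Their summed levels were 3.09 to 68.0 CPM in disrupted late and 15.7 to 145 CPM in disrupted early mice, and 2.58 to 13.1 CPM in normal late and 5.87 to 60.4 CPM in normal early mice. The 4 hepatocyte markers tested were all lower late within the disrupted mice, with 3 called. Their summed level was 6.08 to 12.9 CPM in disrupted late mice, where Apoa1 and Fgb were at 0, and 8.72 to 44.4 CPM in disrupted early mice. Stellate cell and fibroblast markers were below 0 in 7 of 8 within the disrupted mice, with Pdgfra at -0.38 and Col3a1 at -0.59 called. Within the normal mice 7 of 8 were also below 0, with Pdgfra at -0.39 called. Within the disrupted mice the ductal markers Sox9 at -0.54 and Krt19 at -0.35 were called lower and the acinar marker Bhlha15 at 0.56 was called higher. Adipocyte markers were below 0 in 8 of 8 and macrophage markers in 7 of 8 within both conditions, with 0 called. The part of these cells in the time comparisons was not tested.

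On day 1 the condition effect was followed within each sex. In males 4 of the 33 genes were lower in disrupted mice, where 0.664% of all genes tested were called lower, and 27 of the 33 lay below 0. They were Dnajb9 at -0.74 ± 0.17 (adjusted p = 0.0287), Hyou1 at -0.60 ± 0.13 (adjusted p = 0.0211), Pdia3 at -0.41 ± 0.10 (adjusted p = 0.0468) and Ppp1r15b at -0.35 ± 0.08 (adjusted p = 0.0195) on the log2 scale. Pdia3 kept its call in only 4 of the 11 other settings. It did not pass with limma-voom, with upper quartile scaling or without the 4 mice highest in lymphocyte markers (0.0828), among others. Hyou1 did not pass with only the early males in the fit, nor Dnajb9 without the filter on low counts. Without the deepest libraries none of the 4 genes passed. None of these 4 passed without disrupted early male 3, with adjusted p of 0.152 for Dnajb9, 0.105 for Hyou1, 0.285 for Pdia3 and 0.103 for Ppp1r15b. Nor did any pass without normal early male 1, with 0.0971 for Dnajb9, 0.135 for Hyou1, 0.334 for Pdia3 and 0.0874 for Ppp1r15b. Dnajb9 also missed the threshold without normal early male 2 (0.0574), normal early male 3 (0.0954) or disrupted early male 2 (0.0798), and Ppp1r15b without normal early male 3 (0.0832) or disrupted early male 2 (0.0566). Pdia3 missed it without any 1 of 12 further mice, with adjusted p between 0.0502 and 0.0730: disrupted early male 1, normal early females 1 to 3, normal late male 3, normal late females 1 and 2, disrupted late males 1 to 3, and disrupted late females 1 and 2.

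In females 2 of the 33 genes were lower in disrupted mice, where 0.85% of all genes tested were called lower, and 14 of the 33 lay below 0. These were Ppp1r15a at -0.48 ± 0.11 (adjusted p = 0.0165) and Ppp1r15b at -0.32 ± 0.08 (adjusted p = 0.0399). Neither passed without the 4 mice highest in lymphocyte markers, with adjusted p of 0.0754 for Ppp1r15a and 0.427 for Ppp1r15b. The call of Ppp1r15b remained in 7 of the 11 other settings. It was also lost without the filter on low counts, with only the early females in the fit, and without disrupted early female 1 and disrupted late female 1. Ppp1r15a did not pass without normal early female 1 (0.0797), normal early female 2 (0.0687) or disrupted early female 3 (0.103). Ppp1r15b did not pass without disrupted early female 1 (0.227), disrupted early female 2 (0.0677), normal early female 2 (0.147), normal early female 3 (0.155), normal late male 3 (0.0501) or disrupted late male 3 (0.0516).

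The test of the difference between the sexes called 0 of the 33 genes and 0 of all 14000. The effect in males minus that in females was below 0 in 29 of the 33 genes and above 0 in 4. Its median was -0.204, against -0.013 over all genes tested. Single mice shifted many of the 33 genes at once, so these signs, and those counted within each sex, are not separate observations. Normal early male 1 was the highest mouse in 17 of the 33 genes and below the mean in only 2. The smallest unadjusted p were 0.0110 for Pdia3 and 0.0134 for Dnajb9, both with an adjusted p of 0.867, at -0.40 ± 0.15 and -0.64 ± 0.24 (males minus females). Calr at -0.44 ± 0.18 and Hsp90b1 at -0.42 ± 0.20 lay between them. For Ppp1r15b, Ern1 and Eif2ak3 the sexes stood side by side at -0.35, -0.30 and 0.33 in males and -0.32, -0.39 and 0.34 in females. Late, 0 of the 33 were called in males or in females, where 0.693% and 0.15% of all genes tested were called in them, and the difference between males of day 9 and females of day 8 also called 0 of the 33, against 0.0286% of all genes. The late values of Dnajb9 and Hyou1 were 0.55 ± 0.17 (adjusted p = 0.201) and 0.41 ± 0.13 (adjusted p = 0.226) in females of day 8, and their differences, males minus females, were -0.58 ± 0.24 (adjusted p = 0.700) and -0.43 ± 0.19 (adjusted p = 0.708).

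Over both conditions on day 1, 32 of the 33 genes had a log2 fold change above 0 in males relative to females, with a median of 0.17 against 0.003 over all genes, and 1 was called, where 0.4% of all genes tested were called higher in males. This was Hspa5 at 0.41 ± 0.09 (adjusted p = 0.0359), and Ppp1r15a at -0.08 ± 0.07 was the only one below 0. Here too the signs are not separate observations, since normal early male 1 was the highest mouse in 17 of the 33 genes. At an unadjusted p under 0.05 there were 23 higher and 0 lower, against 8.11% higher and 7.99% lower of all genes tested, and DESeq2 called 3 and limma-voom 1. Hspa5 did not pass without any 1 of 9 of the 12 early mice, with adjusted p up to 0.12, nor without the 4 mice highest in lymphocyte markers (adjusted p = 0.259). It passed without normal early male 3, disrupted early male 3 or disrupted early female 3. Of the 11 other settings it passed in 6. It did not pass with upper quartile scaling, without the filter on low counts or with only the early mice in the fit. Nor did it pass without disrupted early female 1 and disrupted late female 1. The mean over both conditions joins sex gaps of unlike size in some genes, though no difference between those gaps was called. Dnajb9 was at 34.1, 31.6 and 34.7 CPM in normal males and at 20.9, 22.3 and 17.9 CPM in normal females. In disrupted early mice it was at 24.1, 19.8 and 16.3 CPM in males and at 18.6, 16.2 and 22.3 CPM in females. The sex gap of disrupted minus that of normal mice is the same contrast as the effect in males minus that in females given above. It is therefore no second observation, with the same 29 of the 33 genes below 0 and 0 called. Markers of other cells also stood to 1 side of 0 by sex on day 1. Of the acinar markers 8 of 10 were above 0 in males relative to females (median 0.119), with 6 higher at an unadjusted p under 0.05 and Prss2 called at 0.29 (adjusted p = 0.0028). All 13 lymphocyte and plasma cell genes (median -1.48), 8 of 8 adipocyte markers (median -1.25) and 8 of 8 macrophage markers (median -0.42) were below 0 with 0 called. Stellate cell and fibroblast markers (8 of 8, median -0.27) were below 0 with Lum called at -0.49. Their part in the sex difference was not tested.

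**Figure D4:**
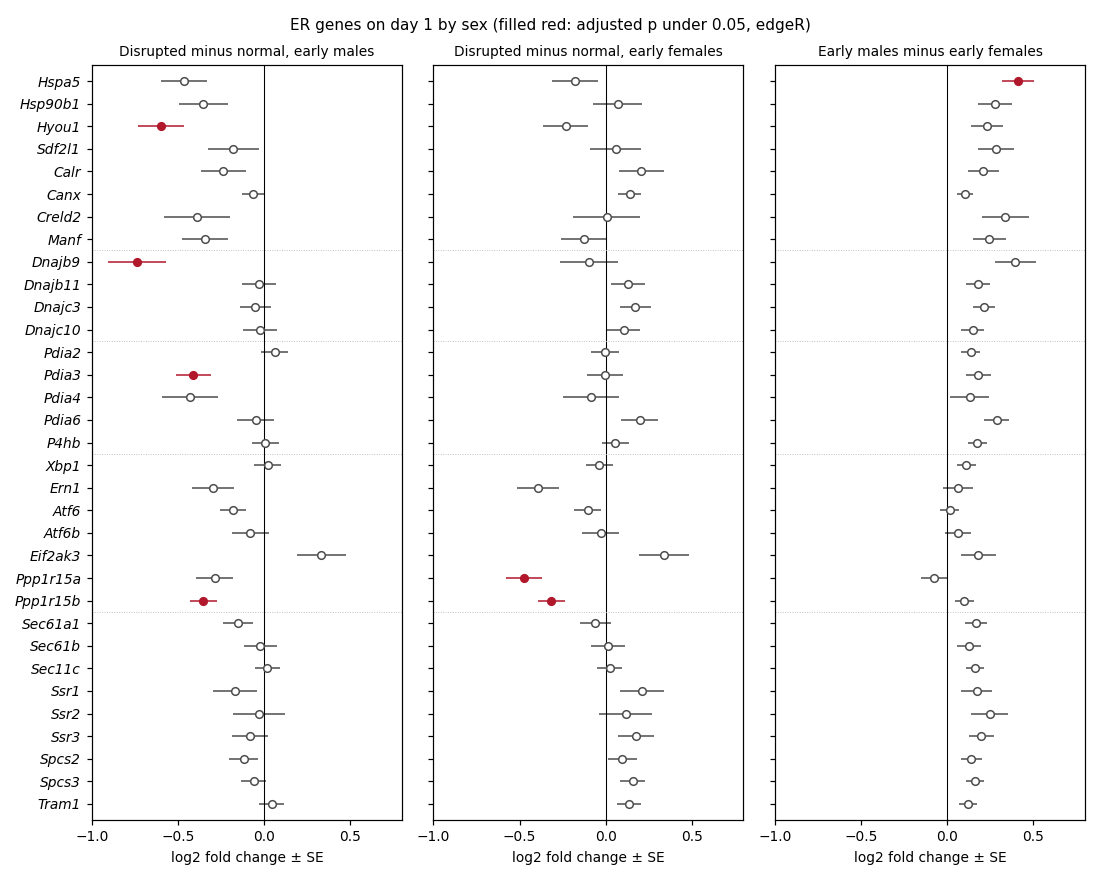
Log2 fold change with its SE (horizontal axes) of the 33 ER genes (rows, in order of role) on day 1 for disrupted minus normal in males, disrupted minus normal in females, and males minus females over both conditions; filled red marks an adjusted p under 0.05 in edgeR. In the left panel 4 points are filled and 27 of 33 lie left of 0, in the middle panel 2 are filled and 14 of 33 lie left of 0, and in the right panel 32 of 33 lie right of 0.

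Genes of neighbouring steps were read from lists of the same pathway. Of all genes tested, 2.09% were called higher and 2.47% lower on day 1. Late against early within the disrupted mice, 7.36% were called higher and 6.55% lower. For the difference of the condition effects 4.77% were called, and for the late condition effect 1.35%. At an unadjusted p under 0.05, 8.7% were higher and 9.01% lower on day 1, and 6.8% and 7.84% late. Of 14 ER-associated degradation genes, Herpud1, which encodes a membrane scaffold of the degradation complex, was lower on day 1 by a log2 fold change of -1.02 ± 0.11 (adjusted p = 4.7e-06), and Sel1l, the adaptor of the ubiquitin ligase HRD1, was higher at 0.23 ± 0.06 (adjusted p = 0.0185). Herpud1 thus moved further than any of the 33 genes in that comparison. Within the disrupted mice Herpud1 was higher late at 1.37 ± 0.11, Syvn1, the HRD1 gene, was higher at 0.29 ± 0.08 and Sel1l was lower at -0.23 ± 0.06. Of 18 further channel, signal recognition particle and signal peptidase genes, 2 were lower on day 1, Srp54b at -0.47 ± 0.12 and Srp68 at -0.19 ± 0.05, both parts of the particle that brings ribosomes to the ER. Srp54b has near-identical copies, among which reads are shared by estimation. Within the disrupted mice 5 of these 18 were higher late, led by the channel partner gene Sec62 at 0.37 ± 0.06.

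Of 14 genes of the ATF4 and CHOP arm, which acts after PERK, 0 were called on day 1 by edgeR, 0 by limma-voom and 1 by DESeq2. At an unadjusted p under 0.05, 9 were lower and 0 higher, against 9.01% lower and 8.7% higher of all genes tested. Their median log2 fold change was -0.33, with 12 of 14 below 0. Within the disrupted mice 4 of these 14 were higher late, Cebpb at 1.26 ± 0.26, Eif2s1, the alpha subunit of eIF2, at 0.37 ± 0.09, Atf4 at 0.27 ± 0.07 and Chac1, an ATF4 target, at 1.40 ± 0.39. Of 18 genes of transport between ER and Golgi, Sec23b, a coat subunit of the vesicles that leave the ER, was lower on day 1 at -0.34 ± 0.08, and 3 were higher late within the disrupted mice, Sec23b at 0.49 ± 0.08, Mcfd2 at 0.21 ± 0.06 and Sec31a at 0.19 ± 0.06.

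Of 21 oxidative folding and quality control genes 0 were called on day 1 by any of the 3 tools, with 1 higher at an unadjusted p under 0.05, and within the disrupted mice Erp29 was lower late at -0.22 ± 0.05. Of 11 oligosaccharyltransferase genes, which attach sugar chains, 0 were called on day 1 by any of the 3 tools, with 1 higher at an unadjusted p under 0.05. Ddost at -0.23 ± 0.06 and Rpn2 at -0.18 ± 0.05 were lower late within the disrupted mice. Of 13 other ER stress regulators 0 were called on day 1 by any of the 3 tools, with 3 lower at an unadjusted p under 0.05. Within the disrupted mice Bfar at 0.33 ± 0.07, Wfs1 at 0.27 ± 0.08 and Creb3 at 0.20 ± 0.06 were higher late, and Eif2ak2, a kinase activated by double-stranded RNA, was lower at -0.44 ± 0.11. For the difference between the late and the early condition effect, Herpud1 at 1.17 ± 0.15, Sec23b at 0.58 ± 0.11, Srp54b at 0.68 ± 0.17, Eif2s1 at 0.48 ± 0.13 and Hspa13, an HSP70 relative of the ER membrane, at 0.42 ± 0.11 were called. Over both sexes none of the genes of these lists was called late by edgeR, where between 0 and 4 genes a list were higher and between 0 and 2 lower at an unadjusted p under 0.05, and DESeq2 called 1, in the ATF4 and CHOP list.

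Of the 7 genes with an ERSE in the promoters printed above, 0 were called in the early comparison by edgeR, against 4.56% of all genes tested. Hspa5, at an adjusted p of 0.0524 in edgeR, was called there by DESeq2 and limma-voom. For the difference of the effects Hspa5 was called, against 4.77% of all genes tested. Between late and early disrupted mice Hspa5 and Canx were called, against 13.9% of all genes tested. Hsp90b1, which holds 2 copies, had log2 fold changes of 0.21 ± 0.10 late and -0.14 ± 0.10 early. Of the 5 genes with an E-box, Dnajb9 was called on day 1, whereas Atf6b, Calr, Pdia2 and Ssr1 had log2 fold changes of -0.06, -0.01, 0.03 and 0.02. Counts over so few genes are not read as a result about either element.

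Some of the called genes share no exon bases with another gene, and others do. In GENCODE M21 on GRCm38, Hspa5 lies on chromosome 2 at 34771970 to 34777547 (plus strand), Hyou1 on chromosome 9 at 44379490 to 44392369 (plus) and Ern1 on chromosome 11 at 106394650 to 106487852 (minus), and no other gene shares their exons. Ppp1r15b, on chromosome 1 at 133131143 to 133139783 (plus), shares exon bases with Gm26616, which averaged 0.169 CPM against 42.3 CPM. Ppp1r15a, on chromosome 7 at 45522916 to 45526268 (minus), shares exon bases with Tulp2 on the opposite strand, which averaged 0.479 CPM and reached at most 1.65 CPM, against 7.72 CPM. Dnajb9, on chromosome 12 at 44205559 to 44210326 (minus), shares exon bases with Mir5627, which was at 0, and Pdia3, on chromosome 2 at 121413775 to 121438687 (plus), with Catsper2 at 0.426 CPM. Manf shares exon bases with Rbm15b on the same strand and Dcaf1 on the opposite strand, at 10.7 and 8.11 CPM against 37.7 CPM. The strand setting of the counting is not given in the sources used here, so reads of overlapping genes on opposite strands may not be told apart. Strand does not separate Rbm15b from Manf.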

How the data were processed

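RNA was taken from the pancreas by a modified column protocol and made into TruSeq libraries, per the labels' protocols. The authors deposited 1 table of RSEM expected counts, estimates that split reads matching several genes between them, for 51912 Ensembl genes. Named per the submitters' processing notes, without role, were STAR 2.5.3a, bcl2fastq 2.20, edgeR 3.28.0, RSEM and build GRCm38.p5. The sources used here do not give the annotation or strand setting. All columns matched a mouse.

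Counts were rounded (7.97% of values, by at most 0.5), filtered with filterByExpr to 14000 genes, and scaled with TMM factors of 0.943 to 1.12. All 24 mice entered 1 model of 8 group means, tested by robust quasi-likelihood in edgeR 4.0.16 (R 4.3.3) with Benjamini-Hochberg adjustment over all genes. Each effect is the mean of the male and female contrasts. DESeq2 1.42.0, limma 3.58.1 (voom), other scalings, no filter, a replicate block and leaving out mice were alternatives. The fit was tested on simulated counts. No 2 libraries shared more than 2.03% of their counts above 20.

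Symbols came from GENCODE M21, which matched 51719 genes. All 33 genes are named. Of the other lists the called genes are named, at most 4 by p, and markers are given as sums. Genes and lists were chosen with earlier results of these data known.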

Additional observations from a re-analysis of the deposited data

Results flagged for a closer look

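In 132 tests over the 33 genes and the 4 sets of 6 mice, 3 single mice stood far from the other 5 of their set, where chance gives about 1 in 20. Hspa5 in disrupted late female 3 was at 289 CPM, with the others at 225 to 245 CPM. Dnajb9 in normal late female 3 was at 30.6 CPM, with the others at 19.4 to 22.7 CPM. Pdia4 in normal early male 1 was at 24.9 CPM, with the others at 15.1 to 18.8 CPM. These sets join males and females.

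The condition effect differed between the late and the early time in 5 of the 33 genes by the interaction contrast of edgeR. The late effect minus the early effect, on the log2 scale, was 0.68 for Dnajb9, 0.61 for Hyou1, 0.50 for Ppp1r15b, 0.47 for Hspa5 and 0.39 for Pdia3.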

How the results depend on the processing

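No called direction turned under any alternative tried. Of the 33 genes, the early comparison called 1 higher (Eif2ak3) with upper quartile scaling and 1 with DESeq2, and 0 to 1 when a mouse was left out. It called 3 to 7 lower when a mouse was left out, with 3 without normal early male 1, normal early female 2 or disrupted early female 1. Late, all genes called numbered 333 without the filter, 311 without disrupted early female 1 and disrupted late female 1, where 1 of the 33 genes was called, 82 without the deepest libraries, and 71 to 261 when a mouse was left out, against 189. For the difference of the effects, the genes of the 33 with the larger value late numbered 3 without the filter, 3 without those females, 2 without the deepest libraries and 3 to 8 when a mouse was left out. Those with the smaller value numbered 1 (Eif2ak3) with DESeq2 and 0 to 1 when a mouse was left out. All genes called numbered 434 without the deepest libraries. Late against early within disrupted mice, 4 of the 33 were higher and 1 lower with upper quartile scaling, 5 were higher without those females, 5 without the deepest libraries, and 5 to 9 were higher and 0 to 1 lower when a mouse was left out. There, all genes called numbered 1296 without the deepest libraries against 1948. Within normal mice 1 of the 33 was lower without the filter, 1 lower and 1 higher with DESeq2, 0 to 1 lower when a mouse was left out. All genes called numbered 211 without the filter, 252 with DESeq2 and 38 to 162 when a mouse was left out, against 118. There, upper quartile scaling put 44.1% of called genes on the higher side, against 55.1% with TMM. For the early comparison these shares were 55.1% and 45.9%. Without the 4 mice with the highest lymphocyte marker sums (disrupted early female 1, disrupted late male 1, normal early female 3 and disrupted late female 1), a setting chosen after seeing the data, 3 of the 33 genes were lower early, 2 had the larger effect late and 3 were higher late within disrupted mice, with 412 of all genes called early. The causes were not tested.

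A general pairing of the mice by replicate number was not seen, though some pairs were correlated. Of 84 pairs with the same number 15 had deviations correlated above 0.1, with a median of 0.00828 and a maximum of 0.402. That maximum was between disrupted early female 1 and disrupted late female 1. In 33 of the 84 pairs the mouse with the same number was the best match in the other group. With the replicate block 4 of the 33 genes were lower early, 0 were called late, 4 differed between the effects, and 9 were higher late within disrupted mice, among them Creld2 at 0.40 (adjusted p = 0.0496). The adjusted p with the block was 0.0657 for Dnajb9 early and 0.0502 for the difference of Hspa5. A change smaller than the within-group spread, a median SD of 0.131 on the log2 scale with 6 mice a side, is not resolved here. Larger changes also went uncalled on day 1, such as those of Pdia4 at -0.26 and Manf at -0.23. Expected counts also share reads among near-identical genes by estimation, and the overlap of exons on opposite strands is not resolved.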
